A study of Mus musculus with 8 samples.

Results

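The genes described here encode the subunits of the 4 respiratory complexes and of the ATP synthase of the inner mitochondrial membrane, in mouse bone marrow dendritic cells stimulated overnight with 1 of a pair of heat-inactivated bacteria. Members were chosen by name, as Ndufa, b, c, s and v genes with a number, Sdha to Sdhd, and the Uqcr, Cox4 to Cox8, Atp5 and mt-Nd, mt-Co, mt-Cytb and mt-Atp genes, without names marked as pseudogenes. Of 55376 genes in the deposited table, 109 names matched, 8 of these were pseudogene names, and 86 of the remaining 101 had 10 or more counts in at least 3 of the 6 count columns. These 86 members comprise 79 nuclear genes and 7 genes of the mitochondrial DNA (mtDNA). Of the 15 genes below the minimum, 9 were nuclear and 6 were mitochondrial. The members are 35 nuclear and 5 mitochondrial subunits of complex I, 4 nuclear subunits of complex II, 8 nuclear and 1 mitochondrial of complex III, 15 nuclear and 1 mitochondrial of complex IV, and 17 nuclear subunits of the ATP synthase (complex V). Ndufa4 was set with complex IV, since its protein is known as a subunit of cytochrome c oxidase.

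The PH group was bone marrow dendritic cells cultured with P. heparinolytica and the PM group the same cell type cultured with P. melaninogenica. Both bacteria had been heat-inactivated, and no untreated cells are in the series, so no value here is set against resting cells. The study concerns the microbiome and immune checkpoint blockade in multiple myeloma, and the sources used here do not give the strain or age of the mice. The series lists 8 libraries, while the table has 6 columns, 3 for each bacterium, which carry the sample ids 1, 3 and 4. The columns PM replicate 1 and PH replicate 3 each match 2 libraries by name, run 1 and run 2, and the sources used here do not tell whether they hold 1 run or both. Nothing in the labels ties an id to an animal or a culture, and the spread that the p-values rest on may therefore be technical.

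The shallowest column, PH replicate 3, held 11624367 counts and the deepest, PH replicate 4, held 40233148. Levels are given in CPM, counts scaled to the size of each library. The shallowest column also stood apart in the predicted gene Gm42418, with 4013 CPM against 867 to 1462 in the other 5. All 13 dendritic cell markers checked were tested and none was at 0, with summed levels of 10901 to 13210 CPM in PH and 10571 to 12662 in PM. Summed macrophage markers were highest in the columns of id 1, at 1532 CPM in PH and 1704 in PM, against 1070 to 1243 in the other 4 columns. Monocyte markers summed to 5821 to 8289 CPM, highest of their group in the columns of id 1, where summed dendritic cell markers were lowest of theirs. These sums lean on the most abundant genes, and not every marker followed its sum. Itgax and Dcstamp, of the dendritic cell list, were highest of their group in id 1. Ccr2, of the monocyte list, was lower in id 1 than in id 4 in both groups. Neutrophil markers summed to 357.4 to 579.5 CPM, stromal to 51.1 to 124.4, T cell to 11.9 to 22.04, B cell to 8.03 to 19.2, erythroid to 2.08 to 3.20 and natural killer cell markers to 0.433 to 0.698. Between the bacteria, edgeR called 1 macrophage and 1 stromal marker, and with the sample id as a block in the fit it called 4 dendritic cell, 3 macrophage, 2 monocyte, 3 neutrophil and 1 stromal marker. In bulk RNA, fewer cells of a type and less RNA per cell cannot be told apart.

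The respiratory chain passes electrons from NADH (at complex I) and succinate (at complex II) through ubiquinone to complex III, and by cytochrome c to complex IV, which reduces oxygen. Complexes I, III and IV pump protons out of the matrix, and the ATP synthase uses their return to make ATP. Most subunits are nuclear-encoded and imported, while a small set of hydrophobic core subunits is made from mtDNA, so both genomes supply parts of complexes I, III, IV and V. In dendritic cells, activation by bacterial products is known to shift energy supply towards glycolysis.

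Of the 13 protein genes of mtDNA, 6 in a row had almost no counts, although they lie between deeply covered genes. mt-Co2, mt-Atp8, mt-Atp6, mt-Co3, mt-Nd3 and mt-Nd4l (GRCm38, chrM:7013-10173) held 16 counts in all over the 6 columns, with 3 as the highest single count. The other 7 had at least 1330 counts in every column. mt-Co1, directly before the stretch, had 119065 to 390077 counts, and mt-Nd4, directly after it, had 12137 to 36601. Both groups showed this alike, so these 6 genes give no information on either bacterium, and no ATP synthase subunit of mtDNA could be compared.

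The annotation holds a nuclear copy of this stretch on chromosome 1, and a stretch of its sequence is printed beside that of a gene that kept its counts, to show how the copies differ. The first bases of mt-Co2 (chrM:7013-7072) and those of Gm28661, an unprocessed pseudogene (chr1:24615506-24615565, minus strand), had 0 mismatches.
mt-Co2: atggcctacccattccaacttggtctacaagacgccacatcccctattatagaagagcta
Gm28661: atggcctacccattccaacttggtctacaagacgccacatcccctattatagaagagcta
A stretch of mt-Nd5 (chrM:12489-12548) and its annotated copy with the best-scoring alignment, Gm11407 (chr4:80002331-80002390, plus strand), had 7 mismatches, which are in capitals.
mt-Nd5: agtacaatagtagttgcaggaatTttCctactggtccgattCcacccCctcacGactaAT
Gm11407: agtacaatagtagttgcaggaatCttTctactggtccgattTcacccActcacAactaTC
Over the whole alignment, mt-Co2 matched Gm28661 at 100% of 681 bases, out of a coding length of 684. mt-Atp6 matched Gm10925, mt-Co3 matched Gm28437 and mt-Nd4l matched Gm10222 at 100% as well, and mt-Nd3 matched Gm28438 at 99.7%. These 5 pseudogenes lie side by side on chromosome 1 and had at most 7 counts in any column, so the reads of the stretch were not assigned there either.

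Among the genes that were counted, identity was taken to the annotated copy with the best-scoring alignment, which need not be the copy with the highest identity. It was 92.3% for mt-Nd5, 92.9% for mt-Cytb, 93.6% for mt-Nd6, 96.7% for mt-Nd2, 97.6% for mt-Co1 and 76.6% for mt-Nd1. The alignment covered only 57.9% of mt-Nd5, 49.1% of mt-Nd2 and 53.2% of mt-Nd1. mt-Nd4 matched Gm28439 at 100%, over 876 of its 1378 bases, and was still counted. In shared windows, 62.2% of the 50-base windows of mt-Nd4 and 51.1% of those of mt-Co1 occur unchanged in another annotated gene, and both kept high counts. For mt-Co1, 28.7% of the windows occur in Gm29216, a different copy from the one aligned. For mt-Atp8 the best-scoring annotated copy had 81.4% identity, and the bases between the chromosome 1 copies of its neighbours were not compared. The sources used here do not say how the counting treated reads that match several places, and the part of this in the low counts was not tested.

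**Figure D1:**
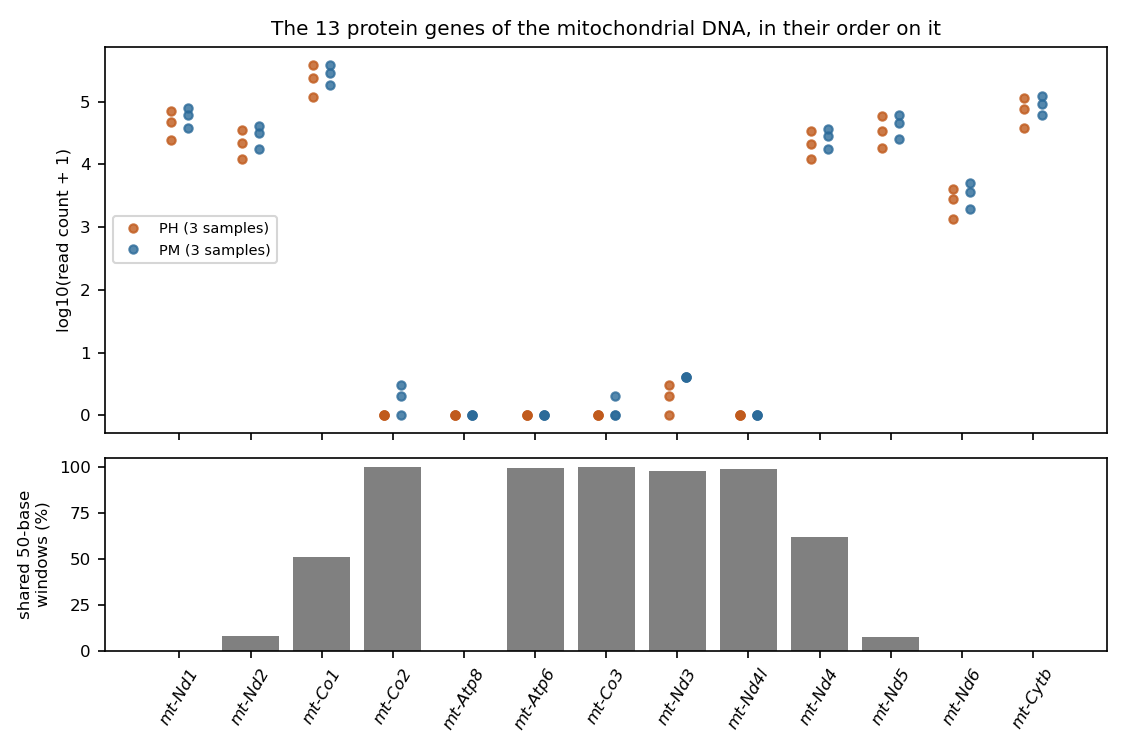
Read counts of the 13 protein genes of mtDNA in their order on it (top, log10 of count + 1, 1 point per column, PH and PM) and the share of their 50-base windows that also occur in another annotated gene (bottom, percent). The 6 genes from mt-Co2 to mt-Nd4l sit at 0 to 3 counts in every column, and 5 of them share 98% or more of their windows.

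Per kilobase of exon, ATP synthase and complex IV genes were the highest of the nuclear members. Atp5b, the catalytic beta subunit, had 454.9 CPM per kb and Cox4i1, the main isoform of cytochrome oxidase subunit IV, 425.7. Medians over the nuclear members were 47.5 CPM per kb for complex I core subunits, 51.8 for complex I supernumerary subunits, 73.2 for complex II, 116.1 for complex III, 117.2 for complex IV and 107.5 for the ATP synthase. The 7 counted mtDNA genes had a median of 925.1 CPM per kb, from 216 in mt-Nd6, the single protein gene on the opposite strand, to 6238 in mt-Co1, the catalytic subunit of complex IV. mt-Co1 alone took 0.866 to 1.024% of all counts in a column.

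Under 10 CPM were 6 members, Ndufb2, Ndufb4, Cox6a2, Cox6b2, Cox7a1 and Atp5l. Of the 50-base windows of Atp5l, an ATP synthase membrane subunit, 84.8% occur in 14 other annotated genes, the processed pseudogene Gm10221 first among them with 52.5%, so its level of 3.07 CPM per kb is uncertain. In all, 28 members share over 10% of their windows with another gene, and 29 share exon bases with a neighbour. Values of these genes are uncertain where the counting split or dropped shared reads, and the strand setting used is not known here.

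**Figure D2:**
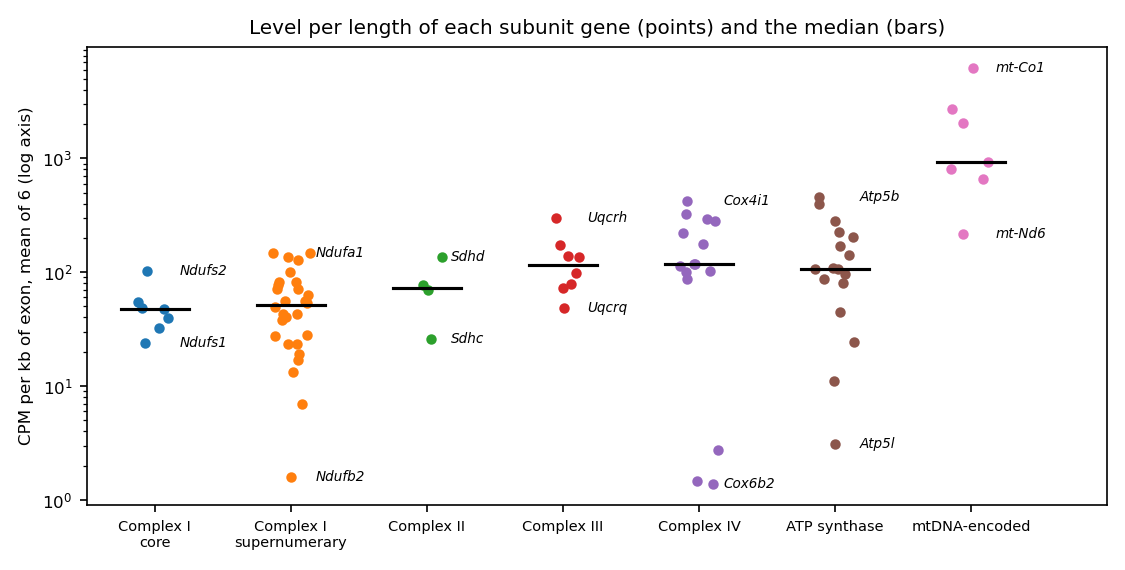
Level of each member in CPM per kb of exon (log axis, mean of the 6 columns, 1 point per gene, bars at the median) by complex, with mtDNA-encoded genes apart. mt-Co1 is highest at 6238 and Cox6b2 lowest at 1.37.

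Each complex IV subunit with tissue isoforms was represented mainly by its widely expressed form, compared here as CPM per kb over all 6 columns. Cox4i1 had 425.7 against 0.145 for Cox4i2, the lung isoform. Cox6a1 had 293.0 against 1.48 for Cox6a2, the heart and muscle isoform, and Cox6b1 had 284.1 against 1.37 for Cox6b2, the testis isoform. For Cox7a2 the level was 175.2 and for Cox7a1, the muscle isoform, 2.75. Cox7b2, Cox8b and Cox8c had 0 counts in all columns, while Cox7b and Cox8a stood at 117.2 and 324.6. Both bacteria gave this order of isoforms.

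At the edge of the count minimum, Cox6a2 reached 10 counts in 5 columns, with 5 counts in PH replicate 3, and Cox6b2 had 16 to 37 counts. Just below it, Ndufa4l2, a hypoxia-associated relative of Ndufa4, had 2 to 19 counts and reached 10 in PH replicate 4 and PM replicate 4, and Cox4i2 reached it in PH replicate 4 alone. The other nuclear genes below the minimum were Cox6c2, Ndufb4c, Ndufs6b and Ndufa11b, with at most 8 counts in a column.

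No member passed between the bacteria by edgeR's quasi-likelihood test without the block (Benjamini-Hochberg adjusted over 14382 genes, threshold 0.05), against 2.34% of all genes tested. The lowest adjusted p of a member in edgeR was 0.183, for Ndufb11. At an unadjusted p under 0.05, 6 members passed in edgeR, all higher in PM, against 13.1% of all genes in either direction and 6.36% higher in PM. DESeq2 called 0 members against 4.03% of the 14307 genes it tested, with a lowest adjusted p of 0.304. The median log2 fold change (PM over PH) was 0.07 over the nuclear members and -0.02 over the mtDNA members, beside 0.01 over all genes tested.

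Most members had narrow intervals between these columns. The intervals rest on the spread between columns, which may be technical, so they do not bound a difference across animals. The shares of all genes set beside them were not matched for depth. The approximate 95% interval of the fold change lay within 1.5-fold in either direction for 82 of 86 members, or 95.3%, against 67.2% of all genes tested. It lay within 1.25-fold for 71 members, or 82.6%, against 40.5% of all genes. The 4 members with wider intervals were Cox6a2, Cox6b2, Cox7a1 and Atp5l, all under 10 CPM. These counts come from the fit without the block. With it, 83 members, or 96.5%, lay within 1.5-fold (all genes 74.6%) and 78, or 90.7%, within 1.25-fold (all genes 53.6%). The median coefficient of variation between samples of a group was 6.39% over the members and 9.21% over all genes, which were not matched for depth.

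With the sample id as a block in the edgeR fit, 6 members rose in PM and 0 fell, against 7% of all genes called higher and 8.27% called lower in that fit. The 6 were Ndufs7, Ndufs8, Ndufb11, Ndufc2, Ndufa2 and Ndufa11, all nuclear subunits of complex I. Thus 6 of the 35 nuclear complex I members and 0 of the 44 other nuclear members were called, and whether these shares differ was not tested. The share of members called higher is near the 7% of all genes. In either direction, these 6 members stand against 15.3% of all genes. The calls also rested on single ids: without id 1 the blocked fit called Ndufb11, Cox6a2 and mt-Nd6, and so kept 1 of the 6. Without id 3 it called 0. Without id 4 it called Ndufs7, Ndufa2, Uqcr11 and Atp5d, and so kept 2 of the 6. Of all genes these fits called 14.3% without id 1, 10.7% without id 3 and 10.8% without id 4. With an id left out the fits rest on few columns, so single calls in them are weak evidence.

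**Figure D3:**
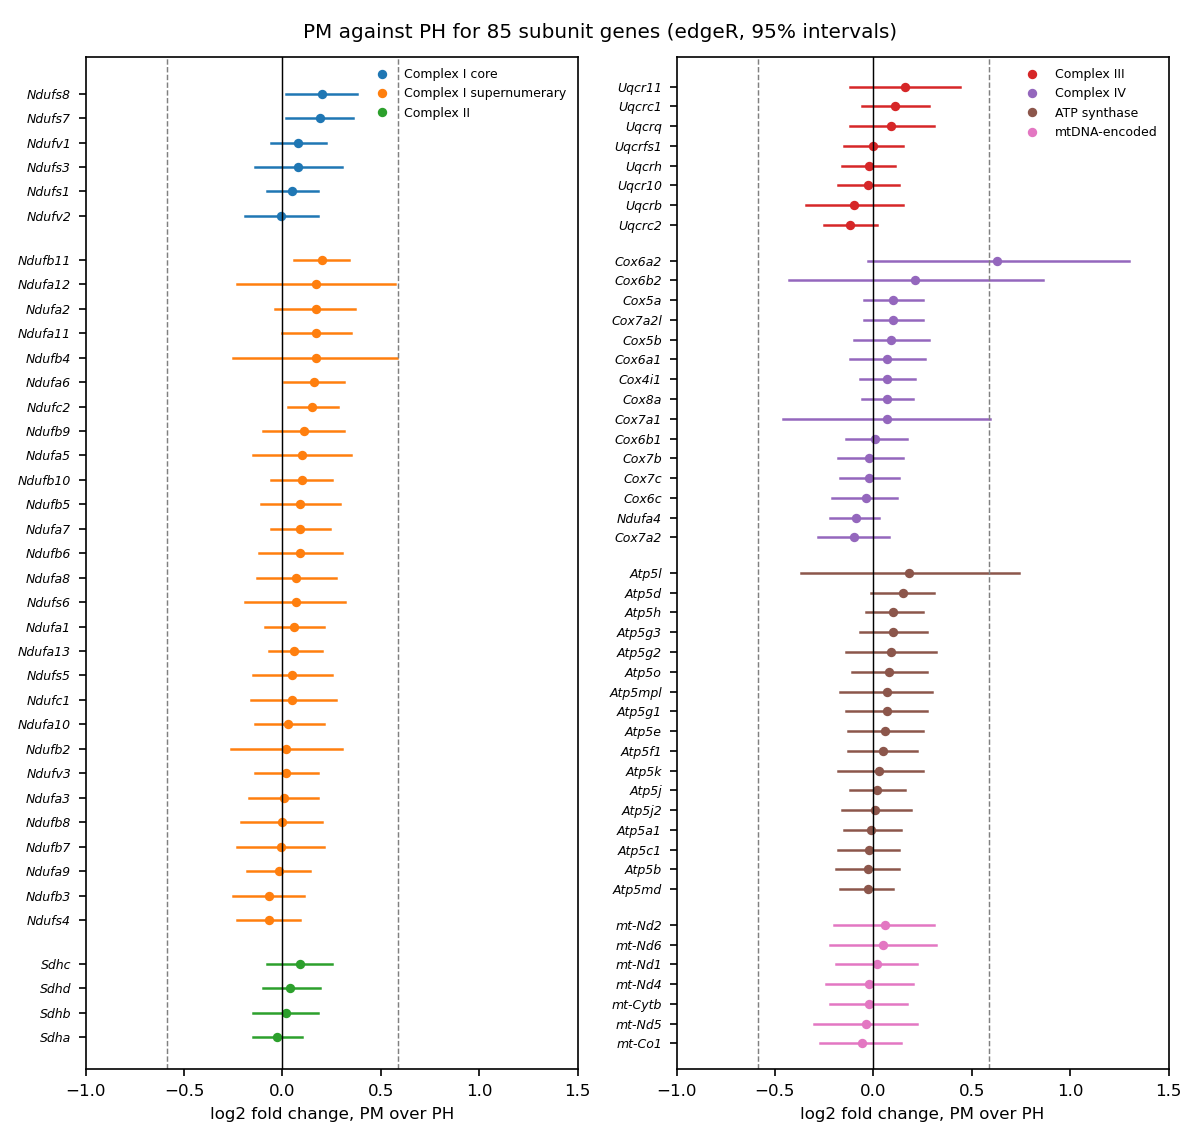
Log2 fold change (PM over PH) of the members named in it, from edgeR without the block, with approximate 95% intervals (lines), ordered by complex. All but 4 intervals lie within 1.5-fold, and the nuclear complex I genes Ndufs8 and Ndufb11 reach 0.20.

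Complex I takes electrons from NADH, and its 7 nuclear core subunits carry the flavin and the iron-sulphur clusters. Their log2 fold changes ran from -0.01 to 0.20 with a median of 0.08, and 6 of 7 were above 0, against 52.4% of all genes. Ndufs7, which holds the last iron-sulphur cluster before ubiquinone, (chr10:80249121-80256793, plus strand) had 49.9, 51.9 and 49.7 CPM in PH replicates 1, 3 and 4 and 63.8, 55.6 and 53.3 in PM replicates 1, 3 and 4. The groups did not overlap, and PM replicate 1 was highest. Its log2 fold change was 0.19 ± 0.08 (SE; edgeR adjusted p = 0.328, with the block 0.0294).

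Ndufs8, a core subunit with a pair of iron-sulphur clusters (chr19:3908863-3912774, minus strand), had 39.3, 40.1 and 37.3 CPM in PH and 48.9, 44.4 and 40.5 in PM. PM was higher within each id and the groups lay apart, though PM replicate 4 and PH replicate 3 were close. The log2 fold change was 0.20 ± 0.08 (SE; edgeR adjusted p = 0.33, with the block 0.0255). Without PM replicate 1 it was 0.12 for Ndufs8 and 0.10 for Ndufs7.

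Not every core subunit was higher in PM. Ndufv2, the subunit next to the flavin-binding Ndufv1, had 78.3, 97.7 and 87.5 CPM in PH and 89.8, 88.2 and 83.9 in PM, so PM lay inside the PH range. Ndufv2 had a log2 fold change of -0.01 with an approximate 95% interval of -0.19 to 0.18 (edgeR adjusted p = 0.987).

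Supernumerary subunits surround the core and are needed for its assembly and stability. Of 28 tested, 23 were above 0, with a median log2 fold change of 0.07 and a range of -0.07 to 0.20. Ndufb11, a membrane-arm subunit (chrX:20615326-20617619, minus strand), had 45.3, 46.5 and 49.7 CPM in PH and 53.2, 53.3 and 56.0 in PM. Every PM value was above every PH value, and PM replicate 1 was the lowest of PM. The log2 fold change was 0.20 ± 0.06 (SE; edgeR adjusted p = 0.183, with the block 0.0123), and 12.9% of the exon bases of Ndufb11 are shared with another gene.

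Ndufc2, another membrane-arm subunit, had 59.9, 57.6 and 57.6 CPM in PH and 67.1, 63.2 and 64.6 in PM. These groups also lay apart, with a log2 fold change of 0.15 ± 0.06 (SE; edgeR adjusted p = 0.262, with the block 0.0458). Ndufa11, a membrane-arm subunit that links to complex III in supercomplexes, had 45.0, 43.6 and 43.4 CPM in PH and 54.8, 48.7 and 45.7 in PM (edgeR adjusted p = 0.377, with the block 0.0481). PM replicate 4 was less than 1 CPM above the highest PH value.

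Ndufa2 had 75.5, 74.0 and 70.5 CPM in PH and 94.6, 78.4 and 74.1 in PM, so the groups overlapped and PM replicate 1 stood alone. Its log2 fold change was 0.17 with all columns and 0.05 without PM replicate 1 (edgeR adjusted p = 0.493 with all columns and 0.78 without that one; with the block 0.0462). At the other end, Ndufs4, a subunit added late in assembly, had 50.05, 47.0 and 49.8 CPM in PH and 50.5, 44.6 and 45.1 in PM. Ndufb3 had 42.7, 42.9 and 41.4 CPM in PH and 44.2, 36.2 and 40.5 in PM. For both, the groups overlapped and the log2 fold change was -0.07, with an edgeR adjusted p of 0.737 for Ndufs4 and 0.78 for Ndufb3.

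Complex II is the enzyme that also oxidizes succinate in the citric acid cycle and has no mtDNA subunit. Sdha, the flavoprotein that binds succinate, had 228.6, 224.9 and 225.7 CPM in PH and 223.5, 222.8 and 220.5 in PM. The PM values all lay below the PH values, by a log2 fold change of -0.03 with an approximate 95% interval of -0.15 to 0.10 (edgeR adjusted p = 0.893). Sdhb, the iron-sulphur subunit, had 81.8, 77.3 and 76.1 CPM in PH and 86.8, 72.6 and 78.5 in PM. The membrane anchors Sdhc and Sdhd had log2 fold changes of 0.09 and 0.04, and their groups overlapped.

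Complex III passes electrons from ubiquinol to cytochrome c. Its nuclear members had a median log2 fold change of -0.01, with 3 of 8 above 0. The paired core proteins differed in sign. Uqcrc1 had 159.3, 152.8 and 152.8 CPM in PH and 184.8, 159.9 and 156.9 in PM, whereas Uqcrc2 had 149.6, 139.4 and 139.2 in PH and 129.6, 130.1 and 134.8 in PM. Every PM value of Uqcrc2 was below every PH value, with a log2 fold change of -0.12 ± 0.06 (SE), while Uqcrc1 overlapped, with 0.11 ± 0.07. Neither passed (edgeR adjusted p = 0.446 for Uqcrc2 and 0.608 for Uqcrc1), and Uqcrc2 shares 26.6% of its exon bases with another gene.

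Uqcr11, a small subunit at the edge of the complex, had 56.3, 58.5 and 54.9 CPM in PH and 78.1, 56.3 and 55.5 in PM. PM replicate 1 was far above the other 5 values, and without that sample the log2 fold change of Uqcr11 turned from 0.16 to -0.02 (edgeR adjusted p = 0.66 with all columns, and 0.0465 in the blocked fit without id 4). Uqcrb, which sits next to cytochrome b, had 83.5, 79.1 and 67.8 CPM in PH and 82.8, 65.1 and 67.4 in PM, lower in PM within each id. Uqcrh, the hinge protein for cytochrome c and the highest complex III gene at 297.9 CPM per kb, had a log2 fold change of -0.02 ± 0.06 (SE).

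Complex IV hands electrons to oxygen. Its 15 nuclear members had a median log2 fold change of 0.07, and 10 were above 0. The widest difference among all members was that of Cox6a2, at 1.11, 0.432 and 0.747 CPM in PH and 1.24, 1.199 and 1.31 in PM. These values stand on 5 to 51 counts, and the approximate 95% interval of the log2 fold change of 0.63 ran from -0.03 to 1.30 (edgeR adjusted p = 0.408). Cox6a2 shares 10.3% of its exon bases with Itgad.

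Among the abundant complex IV subunits the groups were close. Cox8a had 170.7, 176.8 and 175.8 CPM in PH and 188.5, 177.3 and 182.1 in PM, and Cox4i1 had 316.5, 321.0 and 315.1 in PH and 350.8, 321.1 and 329.4 in PM. Both lay apart between the groups by a small step, with log2 fold changes of 0.07 ± 0.06 (SE) each and edgeR adjusted p of 0.7 for Cox8a and 0.702 for Cox4i1. Ndufa4 went the other way, at 64.0, 67.0 and 63.6 CPM in PH and 61.9, 59.96 and 60.4 in PM (log2 fold change -0.09 ± 0.05, SE; edgeR adjusted p = 0.519). Cox7a2 was lower in PM within each id, with a log2 fold change of -0.10 ± 0.08 (SE), whereas Cox7a2l, which joins complexes III and IV in supercomplexes, was higher within each id, with 0.10 ± 0.06.

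The ATP synthase couples proton return to ATP formation. Its 17 members, all nuclear, had a median log2 fold change of 0.06, and 13 were above 0. Atp5b had 900.4, 870.9 and 871.0 CPM in PH and 910.6, 832.9 and 843.3 in PM, so the groups overlapped and the approximate 95% interval of the log2 fold change of -0.03 was -0.19 to 0.13. Atp5a1, its alpha partner in the catalytic head, had a log2 fold change of -0.01 ± 0.06 (SE). Atp5d, a subunit of the central stalk, had 178.7, 199.7 and 193.9 CPM in PH and 225.6, 210.0 and 199.2 in PM, and its log2 fold change of 0.15 ± 0.07 (SE) did not pass (edgeR adjusted p = 0.433, with the block 0.0505, and 0.0224 in the blocked fit without id 4). PM replicate 4 lay just below the highest PH value of Atp5d.

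The proton-carrying ring subunit is encoded by 3 genes that give the same mature protein. Per kilobase, Atp5g3 was highest at 283.2 CPM, with 45.0 for Atp5g2 and 11.2 for Atp5g1. The order of Atp5g2 and Atp5g1 rests on the exon length, 0.731 kb for Atp5g2 and 4.912 for Atp5g1. Without that scaling Atp5g1 was the higher, with mean CPM of 53.5 in PH and 56.1 in PM, against 31.9 and 33.9 for Atp5g2. Both share over 10% of their 50-base windows with other genes, so their levels are uncertain where the counting split or dropped shared reads. The log2 fold changes of the 3 genes were 0.10 ± 0.07 (SE) for Atp5g3, 0.09 ± 0.10 for Atp5g2 and 0.07 ± 0.09 for Atp5g1. None passed. In each of the 3 genes PM replicate 1 was the highest value, and without that sample the log2 fold change was -0.04 for Atp5g2 and -0.03 for Atp5g1.

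In all 7 counted mtDNA genes the PH and PM values overlapped. mt-Co1 had 9757, 10282 and 9493 CPM in PH and 8770, 9513 and 10010 in PM, so the groups overlapped and PM replicate 1 was the lowest of the 6 (log2 fold change -0.06 ± 0.09, SE; edgeR adjusted p = 0.836). mt-Cytb, the complex III core, had 3129, 3319 and 2886 CPM in PH and 2908, 3082 and 3187 in PM. mt-Nd5, a proton-pumping subunit of complex I, had 1389, 1578 and 1471 in PH and 1200, 1536 and 1591 in PM. In mt-Nd5, too, PM replicate 1 was lowest.

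The other complex I genes of mtDNA showed the same overlap. mt-Nd1 had 1916, 2090 and 1794 CPM in PH and 1801, 2008 and 2059 in PM, and mt-Nd2 had 893.0, 1067 and 864.3 in PH and 848.4, 1041 and 1048 in PM. mt-Nd4 had 871.2, 1048 and 842.8 CPM in PH and 845.0, 940.3 and 939.3 in PM. mt-Nd6 had 116.3, 114.9 and 99.98 in PH and 93.2, 118.7 and 129.7 in PM. Without the block all 7 intervals lay within 1.25-fold, with log2 fold changes from -0.06 to 0.06. With it the interval of mt-Nd6 was wider, at -0.48 to 0.57 on the log2 scale. In the blocked fit without id 1, mt-Nd6 was called higher in PM, by a log2 fold change of 0.22 (edgeR adjusted p = 1.3e-04). With all ids its adjusted p in the blocked edgeR fit was 0.907, and without id 4 the log2 fold change was -0.14. The call without id 1 rests on ids 3 and 4 alone. There, PM had 118.7 CPM against 114.9 in PH at id 3, and 129.7 against 99.98 at id 4. Such a call is weak evidence, since so few columns give little measure of the spread.

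**Figure D4:**
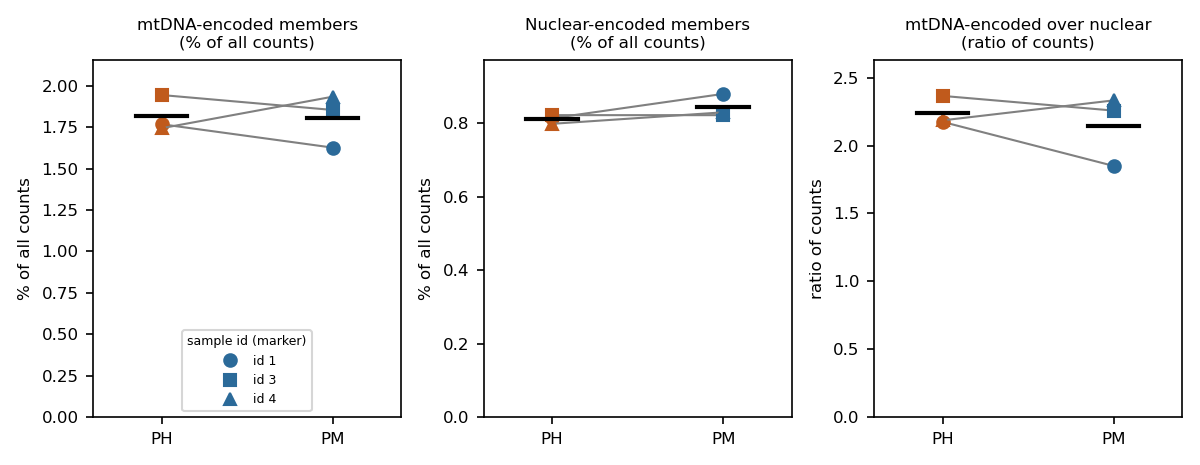
Share of all counts (percent) taken by the mtDNA members and by the nuclear members, and the ratio of the former to the latter, in each of the 3 PH and 3 PM columns (points, with means; axes start at 0). PM replicate 1 has the highest nuclear share, 0.879%, the lowest mtDNA share, 1.63%, and the lowest ratio, 1.85.

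As a share of all counts, the mtDNA members took 1.77, 1.94 and 1.74% in PH and 1.63, 1.85 and 1.93% in PM. The means were 1.82 ± 0.11% (SD, n = 3) and 1.80 ± 0.16%, and the difference was smaller than either spread. The nuclear members together took 0.813, 0.821 and 0.798% in PH and 0.879, 0.821 and 0.829% in PM, with means of 0.811 ± 0.012% and 0.843 ± 0.031%. PM replicate 1 set most of that step, which was 0.0324 percentage points with it and 0.0144 without it.

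Within id 1 the nuclear and the mtDNA members lay on opposite sides of 0. There, 63 of the 79 nuclear members were higher in PM and 0 of the 7 mtDNA members were, with median log2 ratios of 0.15 and -0.11. At id 3, 35 nuclear members and 1 mtDNA member were higher in PM, with medians of -0.02 and -0.06. At id 4, 55 nuclear and all 7 mtDNA members were higher, with medians of 0.05 and 0.16. Over all genes the medians were within 0.01 of 0 at each id. Thus mtDNA members of 1 id went mostly 1 way, and the way differed between ids.

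The nuclear difference leaned on id 1. The median log2 fold change of the nuclear members was 0.065 with all columns and -0.027 without PM replicate 1, and it was 0.003 in the blocked fit without id 1. Every nuclear group had its highest median deviation in PM replicate 1, from 0.10 in complex II to 0.16 in the ATP synthase, and the mtDNA members had their lowest there, -0.14. PM replicate 1 is also 1 of the 2 columns that match 2 libraries and had the highest summed macrophage markers, and the part of either in the result was not tested. Over all 3 ids, 24 nuclear members were higher in PM within each id and 5 were lower, against 23.8% and 22% of all genes. In 11 nuclear members all PM values were above all PH values, against 10.1% of all genes. These were 7 of the 35 nuclear complex I members and 4 of the 44 other nuclear members, and whether these shares differ was not tested. In 3 nuclear members (Sdha, Uqcrc2 and Ndufa4) all PM values were below all PH values, against 9.28% of all genes.

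**Figure D5:**
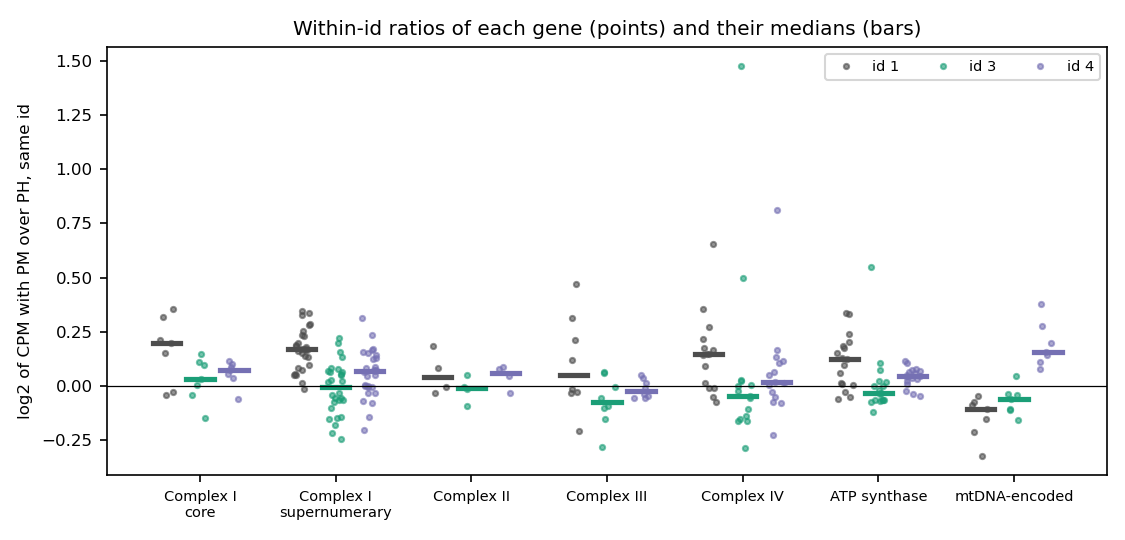
Log2 of the CPM ratio PM over PH within each sample id (points, 1 per gene; bars, medians) by complex and for mtDNA-encoded members. At id 1 nuclear medians lie above 0 and the mtDNA median at -0.11, and at id 4 all 7 mtDNA genes lie above 0.

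Nuclear members are also described by their promoters, since factors known to act on respiratory genes, such as NRF1, the ETS factor GABP, YY1 and the oestrogen-related receptors (ERR), bind short motifs there. Of the 79 nuclear members, 66 matched a RefSeq promoter window (GRCm38.p6, 250 bases before to 50 after the start), 1 of them through a synonym. Each motif was searched on both strands, and matches of different motifs may overlap. The NRF1 letters, GCGCA, any base, then GCGC, were in 17 of 66 members, or 25.8%, against 4.6% of 32851 promoter windows of the same length. The YY1 letters AAGATGGC were in 10, or 15.2%, against 2.75%, the ERR letters AAGGTCA in 8, or 12.1%, against 4.72%, and the ETS letters CCGGAAGT in 5, or 7.58%, against 3.89%. A member was counted if any of its windows matched, and 5 members have more than 1 window, while the background was counted by window. The background was not matched for base composition or level. These are descriptions of the windows and show no binding.

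Stretches of those windows are printed for 2 of the 6 complex I members that rose in the blocked fit and for Sdha, which has 3 NRF1 matches, with the motif in capitals. The Ndufa11 stretch (chr17:56717687-56717726, plus strand) holds NRF1 letters, and the Ndufs7 stretch (chr10:80249458-80249480, plus strand) holds YY1 letters just after the start. The Sdha stretches (chr13:74350314-74350353, chr13:74350271-74350310 and chr13:74350226-74350265, minus strand) lie in a row before the start.
Ndufa11: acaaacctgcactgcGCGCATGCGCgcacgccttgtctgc
Ndufs7: ctgaaggccgaggccAAGATGGC
Sdha distal: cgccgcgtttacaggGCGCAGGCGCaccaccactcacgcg
Sdha middle: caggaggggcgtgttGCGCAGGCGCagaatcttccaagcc
Sdha proximal: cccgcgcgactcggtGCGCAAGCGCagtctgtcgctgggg

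The genes around the chain were read from 10 lists, with 260 genes tested. Without the block, edgeR called 1 of them, Gpd2, against 2.34% of all genes, and 21 had an unadjusted p under 0.05, against 13.1%. With the block 20 rose and 5 fell, against 7% and 8.27% of all genes. Of these 25, 13 were still called without id 1, 14 without id 3 and 10 without id 4. Gpd2, Mrpl34, Pdk1, Sod2 and Ucp2 were called in each of these fits, and every other gene named below as called with the block lost that call without at least 1 id. Gpd2, the mitochondrial glycerol phosphate dehydrogenase that feeds electrons from cytosolic NADH to ubiquinone, had 196.1, 194.1 and 181.8 CPM in PH and 145.2, 154.3 and 143.0 in PM. The groups lay well apart, with a log2 fold change of -0.37 ± 0.06 (SE; edgeR adjusted p = 0.0185, DESeq2 adjusted p = 2.8e-05). With 1 column left out, the edgeR adjusted p of Gpd2 was 0.0223 without PM replicate 1 and 0.0527 to 0.114 without any other, while the log2 fold change stayed between -0.40 and -0.35. Gpd2 also fell in the blocked fit (edgeR adjusted p = 3.4e-07).

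Gpd2 belongs to the list of carriers and subunits outside the name rule, where 2 of 18 rose and 2 fell with the block. Atpif1, the inhibitor of ATP hydrolysis by the synthase, had 111.2, 127.2 and 109.8 CPM in PH and 129.8, 134.2 and 127.8 in PM, a log2 fold change of 0.17 ± 0.07 (SE; edgeR adjusted p = 0.336, with the block 0.0117). Ndufb1-ps, named as a pseudogene of a complex I subunit, had 99.4, 91.8 and 99.1 CPM in PH and 85.3, 86 and 85.3 in PM (log2 fold change -0.18 ± 0.06, SE; edgeR adjusted p = 0.189, with the block 0.012). Coq7, which acts in ubiquinone synthesis, rose with the block (edgeR adjusted p = 0.00854).

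Assembly factors held a single call. Of 19 complex I assembly factors, 0 were called in either edgeR fit, 0 had an unadjusted p under 0.05 and DESeq2 called 0. Of 36 for complexes II to V, 1 fell with the block, Higd1a, a hypoxia-induced factor of complex IV (edgeR adjusted p = 0.0214). Among 29 genes of mtDNA copying and transcription, 2 rose with the block: Lrpprc, which stabilizes mitochondrial mRNA, at a log2 fold change of 0.19, and Trmt10c, a subunit of mitochondrial RNase P, at 0.24 (edgeR adjusted p = 0.0152 and 0.0273). Of 17 regulators of mitochondrial biogenesis, 0 were called with or without the block, 0 had an unadjusted p under 0.05 and DESeq2 called 0, with a median log2 fold change of 0.00.

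Genes of the mitochondrial ribosome, which translates the mtDNA mRNAs, were the largest list. Of 77 tested, 64 were above 0, with a median log2 fold change of 0.08 beside 0.01 over all genes, and 8 rose and 0 fell with the block, of which 1 was still called without id 1. Mrpl34 had 28.2, 24.3 and 26.6 CPM in PH and 34.7, 30.3 and 31.3 in PM, a log2 fold change of 0.28 ± 0.08 (SE; edgeR adjusted p = 0.168, with the block 0.00181). Mrps24 and Mrpl2 followed with 0.24 and 0.23 (edgeR adjusted p with the block 0.0139 and 0.0198).

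In the citric acid cycle list, Ogdh, a subunit of the 2-oxoglutarate dehydrogenase, and Mpc2, of the pyruvate carrier, rose with the block, and Pdk1, the kinase that inhibits pyruvate dehydrogenase, fell. Ogdh lost its call without any 1 id (edgeR adjusted p = 0.107 to 0.148), and Mpc2 without id 1 (0.188) and id 4 (0.112). Pdk1 had 46.5, 29.0 and 49.1 CPM in PH and 35.0, 21.5 and 30.3 in PM, so id 3 was lowest in both groups and PM was lower within each id (log2 fold change -0.55 ± 0.21, SE; edgeR adjusted p = 0.312, with the block 1.8e-07). Of 28 import, cristae and carrier genes 4 rose with the block, among them Ucp2, an inner-membrane carrier, at 270.3, 282.4 and 274.5 CPM in PH and 346.2, 306.3 and 317.3 in PM (edgeR adjusted p = 0.16, with the block 8.1e-04). Slc25a5, an exchanger of ADP and ATP, rose by a log2 fold change of 0.17 in that fit (edgeR adjusted p = 0.0114).

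Of 8 superoxide defence genes, Gpx4 and Txn2 rose and Sod2 fell with the block. Sod2, the superoxide dismutase of the matrix, had 1089, 812.7 and 849.9 CPM in PH and 989.4, 693.4 and 672.7 in PM, lower in PM within each id while the groups overlapped (edgeR adjusted p = 0.637, with the block 5.6e-04). The 2 rRNA genes of mtDNA were not called in either fit, by DESeq2 or at an unadjusted p under 0.05, each with 0 of 2. They took 0.0816, 0.0981 and 0.0854% of counts in PH and 0.0778, 0.0827 and 0.0964% in PM, in libraries made from polyadenylated RNA.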

How the data were processed

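RNA of mouse bone marrow dendritic cells was sequenced as polyadenylated, strand-marking libraries, per the labels' protocols. The authors deposited whole-number read counts per gene with no scaling. Tools named in the submitters' processing notes are Trimmomatic, STAR 2.5.3a and featureCounts 1.6.4, with GRCm38 as the build. The sources used here do not give the annotation release, the strand setting or the treatment of reads that match several places. The 6 count columns were grouped by bacterium and sample id from their names.

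PM was compared with PH by edgeR 4.0.16 in R 4.3.3 (TMM scaling, filterByExpr with a minimum count of 10, glmQLFit with robust estimates and glmQLFTest), with Benjamini-Hochberg adjustment over 14382 genes and a threshold of 0.05. CPM values use the TMM-scaled library sizes, and SE values derive from the test statistic. Totals ran from 11624367 to 40233148 counts, and counting error is larger in the shallowest column. The fits with and without the block were checked on counts simulated without an effect of the sample id. That check required only that the median log2 fold changes set in it came back, and set no condition on the share of changes called. DESeq2 1.42.0, another scaling, other count filters, scaling without mitochondrial genes, a block on the sample id and leaving out columns were tried as alternatives. Correlations of same-id deviations over all genes were 0.44 for id 1, 0.32 for id 3 and 0.24 for id 4, so pairing by id was assumed, from the counts and not from the labels. The planned fit has no block, and its p-values, SE and intervals do not use the pairing, so blocked values are given where they change a call. No 2 columns agreed within sampling noise. Nuclear copies were aligned with blastn 2.17.0 among GENCODE release M21 transcripts, and the alignment with the highest score was kept for each gene. Promoter windows came from RefSeq.

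Named genes were the mtDNA members, the 2 highest and 2 lowest fold changes and the highest level per length of each complex, isoform pairs, genes below the minimum, members passing the threshold, and from each pathway list up to 3 genes passing the threshold, else passing with the block. Ndufc2, Ndufa2, Atp5a1, Atpif1, Ndufb1-ps, Coq7, Slc25a5, Ndufb2, Ndufb4, Itgad and the markers Itgax, Dcstamp and Ccr2 were named after their values were seen. Members and lists were chosen with earlier results of these data known. Values of 1 member are not reported here.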

Additional observations from a re-analysis of the deposited data

How the results depend on the processing

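The counts called in edgeR depended on the replicate block. The number of members called was 0 without the block, 6 with it, and 3 without id 1, 0 without id 3 and 4 without id 4 in that fit. Pathway genes called went from 1 to 25 with the block and were 19, 15 and 11 without id 1, 3 and 4 in that fit. Without the block and with 1 column left out, 0 members and 0 to 1 pathway genes were called. Both counts stayed at 0 and 1 under DESeq2, its type of size factors, both other count filters and scaling without mitochondrial genes, and 0 members were called among those with 10 or more counts in all columns or with no shared exon base. The median log2 fold change of the nuclear members ran from -0.027 (without PM replicate 1) to 0.099 with 1 column left out. Of 65 genes under 15 alternatives, 20 changed the sign of their log2 fold change, each only with a column or id left out, with 0.139 as the largest size among such values. None of the 20 was called with all columns, but Uqcr11 was in the blocked fit without id 4 and mt-Nd6 in that without id 1. With 1 column left out, log2 fold changes ran from -0.039 to 0.005 for Atp5a1, -0.033 to 0.120 for Atp5g1, -0.041 to 0.157 for Atp5g2, -0.027 to 0.112 for Cox6a1, -0.045 to 0.053 for Cox6b1, -0.062 to 0.175 for Cox7a1, -0.088 to 0.019 for Cox7b, -0.147 to 0.001 for Ndufb3, -0.089 to 0.066 for Ndufv2, -0.061 to 0.075 for Sdhb, -0.023 to 0.248 for Uqcr11, -0.076 to 0.018 for mt-Cytb, -0.034 to 0.070 for mt-Nd1, -0.001 to 0.149 for mt-Nd2, -0.079 to 0.077 for mt-Nd4, -0.113 to 0.071 for mt-Nd5 and -0.056 to 0.166 for mt-Nd6. In the blocked fit without the id given, they were Atp5g2 -0.052 (without 1), Atp5md 0.003 (without 3), Cox6a1 -0.048 (without 1), Cox6b1 -0.034 (without 1), Cox6b2 -0.024 (without 1), Cox7a1 -0.018 (without 1) and -0.039 (without 3), Ndufb3 0.001 (without 3), Ndufv2 0.056 (without 3) and 0.029 (without 4), Sdhb -0.023 (without 1), Uqcr11 -0.024 (without 1), Uqcrh 0.004 (without 3), mt-Cytb 0.009 (without 1) and 0.013 (without 3), mt-Nd1 -0.073 (without 4), mt-Nd2 -0.055 (without 4), mt-Nd4 0.050 (without 3), mt-Nd5 0.027 (without 1) and mt-Nd6 -0.139 (without 4). The cause was not tested. The intervals were widest for Cox6a2, Cox6b2, Cox7a1 and Atp5l, all with low counts, and 6 mtDNA genes gave no usable counts.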
